A study of Mus musculus with 3 samples.

Results

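The Fos and Jun family comprises the transcription factor genes Fos, Fosb, Fosl1, Fosl2, Jun, Junb, Jund and Atf3, taken here as every array probe whose accession belongs to those symbols in RefSeq. These are 8 of the 15724 genes that could be named on the array, and 10 of its 41174 gene probes. Cortex RNA from mice heterozygous for the allele Gtf2i(+/Δex2) was compared with cortex RNA from WT(+/+) mice, all at an age of 16 weeks. Both genotypes were on a mixed background of 98.4% C57BL/6J and 1.6% 129Sv/CD1. The 3 arrays each took a pooled mutant RNA and a pooled WT RNA, from 3 to 5 mice a pool. Cy3 labelled the mutant pool on replicates 1 and 3, and Cy5 labelled it on replicate 2. Whether new pools were made for each array is unstated, so the p-values cover no more than array-to-array spread, possibly technical. Dissected cortex mixes neurons, glia and vessels, so less RNA per cell and fewer cells of a type cannot be told apart.

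Fos and Jun proteins are basic leucine zipper factors that pair to form the dimeric transcription factor AP-1. Fos proteins need a Jun partner to bind DNA, whereas Jun proteins can also pair with each other. In cortex, Fos, Fosb and Junb are immediate early genes, whose transcription rises within minutes of neuronal activity or growth factor signalling and then falls again. The promoter of Fos is a classical target of the serum response factor, of CREB and of TFII-I, the protein that Gtf2i encodes.

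Ratios are log2 of mutant over WT intensity, so a negative value means a lower signal in Gtf2i(+/Δex2) cortex. That direction is likely and not stated outright in the labels. It rests on the order of the genotypes in the sample titles, on the readme's definition of the fold as test over control, and on control spots that follow the dyes. The BrightCorner control spots had median log2 ratios of 3.21, -3.32 and 3.48 on replicates 1, 2 and 3, so the deposited columns hold genotypes and not dyes. Gtf2i itself read -0.47 ± 0.04 and -0.32 ± 0.05 at its 2 probes (log2 ratio, SD, n = 3 arrays). The position of these probes in the transcript was not analysed here, so they check the labels only in part.

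Of the 10 family probes 9 could be tested, covering 7 genes, and the probe of Atf3 could not. A probe was tested when its spot was flagged reliable, meaning foreground over 2 times background, on at least 2 arrays. At a limma adjusted p under 0.05, taken over all 27530 tested probes, 2 family probes were lower in the mutant and 2 were higher. That is 44.4% of the 9, and 33.9% of all tested probes were called (18.9% lower and 15% higher). So the count by itself says nothing particular about the family. The median ratio of the 9 probes was -0.09 on the log2 scale, and that of all tested probes was -0.00155. By the authors' own rule of a limma B statistic above 0, the called probes were those of Fosl2 alone, 2 of 9, and 9.67% of all tested probes.

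The windows upstream of 3 of these genes are printed to show the gene with the widest ratios, Fosl2, and the immediate early genes Fos and Junb. The ratios of Fos and Junb were lowest on replicate 3, as were those of Fosb, Fosl1, Jun and Fosl2 probe A_51_P507242. Each window runs 5′ to 3′ over the 250 bases before the RefSeq start in build GRCm38.p6. Capitals mark the core of the cyclic AMP response element, TGACG, and the GC box, GGGCGG, on either strand.
Fosl2, chr5:32136222-32136471, plus strand: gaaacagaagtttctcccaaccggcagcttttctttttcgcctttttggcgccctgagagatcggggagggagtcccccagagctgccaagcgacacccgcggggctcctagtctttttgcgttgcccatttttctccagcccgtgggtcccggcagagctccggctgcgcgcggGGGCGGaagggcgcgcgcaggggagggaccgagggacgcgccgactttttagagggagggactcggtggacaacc
Fos, chr12:85473640-85473889, plus strand: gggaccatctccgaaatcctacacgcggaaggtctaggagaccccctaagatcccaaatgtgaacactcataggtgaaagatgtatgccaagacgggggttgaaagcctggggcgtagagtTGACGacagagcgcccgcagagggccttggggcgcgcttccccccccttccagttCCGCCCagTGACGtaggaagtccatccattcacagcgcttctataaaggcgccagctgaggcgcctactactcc
Junb, chr8:84978749-84978998, minus strand: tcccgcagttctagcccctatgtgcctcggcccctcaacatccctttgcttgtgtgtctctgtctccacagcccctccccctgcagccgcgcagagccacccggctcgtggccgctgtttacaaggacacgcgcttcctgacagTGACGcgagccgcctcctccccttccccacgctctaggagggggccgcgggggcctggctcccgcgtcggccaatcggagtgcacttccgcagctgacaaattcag

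The Fos window holds TGACG from 129 to 125 and from 66 to 62 bases upstream of the start, and the Junb window holds it from 106 to 102 bases upstream. The Fosl2 window holds no TGACG and has a GC box from 75 to 70 bases upstream. RefSeq windows were matched for 7 of the 8 genes. TGACG on either strand was found in 4 of these 7 windows (Fos, Fosb, Junb and Atf3) and in 17.8% of 32851 windows of all genes. GGGCGG on either strand was found in 5 of 7 (Fos, Fosb, Fosl2, Jun and Atf3) and in 32.7% of all windows. The full element TGACGTCA and the AP-1 site TGANTCA, both palindromes, were in 0 of 7, and in 1.55% and 6.75% of all windows. Every TGACGTCA also counts as a TGACG. These letter matches describe the windows and say nothing about what binds there.

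Fosl2, which encodes the Fos relative Fra-2, held the lowest and the highest ratio of the family, at 2 probes assigned to the same RefSeq transcript. Probe A_51_P507242 gave intensities of 7245, 9674 and 9354 in Gtf2i(+/Δex2) cortex on replicates 1, 2 and 3, against 17411, 21657 and 22689 in WT cortex. All 3 mutant values lay far below all 3 WT values, with no overlap. The log2 ratios were -1.26, -1.16 and -1.28, a mean of -1.24 ± 0.06 (SD, n = 3). The mutant signal was thus 42.5% of WT, with a 95% interval from 39.5% to 45.7% (limma adjusted p = 0.0016). This was the eleventh lowest mean ratio of all 27530 tested probes, and on single arrays the probe ranked 16, 36 and 13 from the lowest. With the direction turned, the same values would read 2.35-fold higher and rank from the highest. It was also the sole family probe that changed at least 2-fold, which 0.203% of tested probes did in the lower direction and 0.0618% in the higher.

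The other Fosl2 probe went the opposite way. Probe A_52_P484903 gave 441, 564 and 463 in the mutant against 366, 430.2 and 360.4 in WT cortex on replicates 1, 2 and 3. The mutant values were all above the WT values. Its log2 ratios were 0.27, 0.39 and 0.36, a mean of 0.34 ± 0.06 (SD, n = 3), or 127% of WT with a 95% interval from 118% to 136% (limma adjusted p = 0.00503). Both Fosl2 calls stood in all 12 alternative settings of the limma fit. The falling probe ranged from -1.27 to -1.21 with adjusted p from 6.64e-06 to 0.0158, and the rising probe from 0.28 to 0.41 with adjusted p from 0.000229 to 0.0361.

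The difference between the Fosl2 probes, A_51_P507242 minus A_52_P484903, was -1.53, -1.55 and -1.64 on the 3 arrays. Its mean of -1.58 ± 0.06 (SD, n = 3) amounts to a 2.98-fold disagreement within 1 gene. The probes differed widely in signal. A_51_P507242 lay at 96.0 to 123 times the median of negative controls in the mutant channel and 241 to 292 times in WT. A_52_P484903 lay at 5.72 to 7.16 times and 4.64 to 5.28 times. An exact sign-flip permutation test over 3 arrays gave p = 0.25, the smallest value that 3 arrays allow, so the spread between arrays and not this p carries the comparison. Among 3270 named genes with several tested probes, the median gap between a gene's highest and lowest mean ratio was 0.16, and no gene other than Fosl2 reached the gap of Fosl2. Probes of a gene were called in opposite directions for 198 of these genes, or 6.06%. The probe sequences and their places in the transcript were not analysed here, so neither ratio can be assigned to a particular exon or transcript form, and no single direction can be given for Fosl2.

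**Figure D1:**
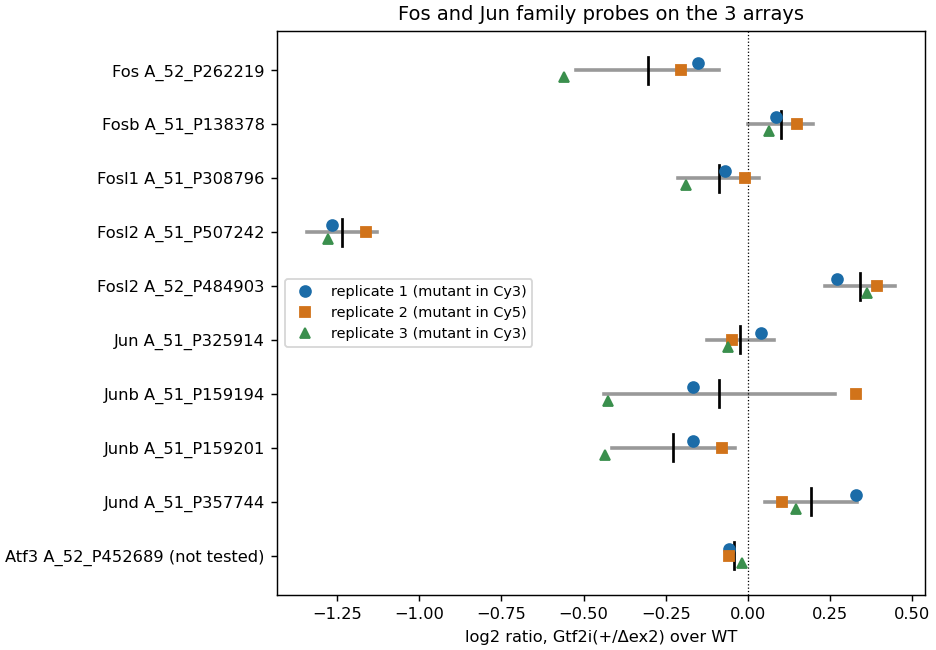
Log2 ratio of Gtf2i(+/Δex2) over WT (x axis) for each of the 10 Fos and Jun family probes (rows), with a symbol per array, a black tick at the mean of 3 arrays and a grey bar for the 95% limma interval of tested probes. The probes of Fosl2 lie at -1.24 and 0.34. Fos and both Junb probes are lowest on replicate 3, as are Fosb, Fosl1, Jun and Fosl2 probe A_51_P507242.

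Spots around the Fosl2 probes on the glass had ratios near 0. The 84 gene spots within 3 columns and 6 rows of the falling probe had median log2 ratios of -0.03, -0.01 and -0.02 on replicates 1, 2 and 3. The 72 around the rising probe had medians from -0.02 to 0.00339. Both directions held in both dye orientations. The falling probe read -1.27 as the mean of the arrays with the mutant in Cy3 and -1.16 on the array with it in Cy5, and the rising probe read 0.32 and 0.39.

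The genes whose 3 ratios lay nearest to those of a Fosl2 probe were found by Euclidean distance over the 3 arrays among 16314 named probes. Among those nearest to the falling probe were the zinc finger gene Zfp628 at a distance of 0.222 (mean log2 ratio -1.11) and the Cdk5 activator gene Cdk5r2 at 0.292 (-1.21). Nearest to the rising probe were Nt5dc3 at a distance of 0.038 (mean log2 ratio 0.34), Tmem268 at 0.0399 (0.36) and the chaperone gene Dnajb3 at 0.0466 (0.32).

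Fos, the immediate early gene most used as a marker of recent neuronal activity, was modestly lower in the mutant. Its probe A_52_P262219 gave 470.4, 500.02 and 510.3 in Gtf2i(+/Δex2) cortex, against 523, 576 and 752 in WT cortex on replicates 1, 2 and 3. The mutant values lay within a narrow band, and the WT value of replicate 3 stood well above the other WT values. The log2 ratios were -0.15, -0.21 and -0.56, a mean of -0.31 ± 0.22 (SD, n = 3), or 80.9% of WT with a 95% interval from 69.6% to 94.0% (limma adjusted p = 0.0448). The call was narrow: the adjusted p was 0.0764 without replicate 1 and 0.0863 without replicate 2. Without replicate 3, which had the widest gap, the ratio was -0.18 with an adjusted p of 0.03. In all, 6 of 12 alternatives lost the call, and the adjusted p ran from 0.0152 to 0.0907.

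Fosb, which also gives rise to the long-lived splice form ΔFosB, read slightly higher. It had 476, 485 and 468 in the mutant and 449, 437 and 448 in WT cortex at probe A_51_P138378. The groups did not overlap, as was the case for 4 of the 9 tested family probes and for 32.2% of all tested probes. The mean log2 ratio was 0.10 ± 0.05 (SD, n = 3) with a limma adjusted p of 0.108, so it did not pass. The 95% interval of the mutant signal ran from 100.01% to 115% of WT. It covers array-to-array spread alone and, unlike the adjusted p, makes no allowance for the other probes tested.

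Fosl1, which encodes Fra-1, a Fos relative without the strong activation domain of Fos, was near the level of the controls. Its probe A_51_P308796 gave 140.1, 142 and 116 in the mutant and 147, 143 and 132 in WT cortex. Although its spots carried the reliable flag, the authors' intensity calls put both channels as absent on all 3 arrays. The signal was 1.43 to 1.86 times the median of negative controls in the mutant channel and 1.70 to 2.04 times in the WT channel. The mean log2 ratio of -0.09 ± 0.09 (SD, n = 3) did not pass (limma adjusted p = 0.204). It read -0.27 with the negative control level subtracted and -0.04 without replicate 3, neither of them called, and it passed with array weights at -0.08 (limma adjusted p = 0.035).

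**Figure D2:**
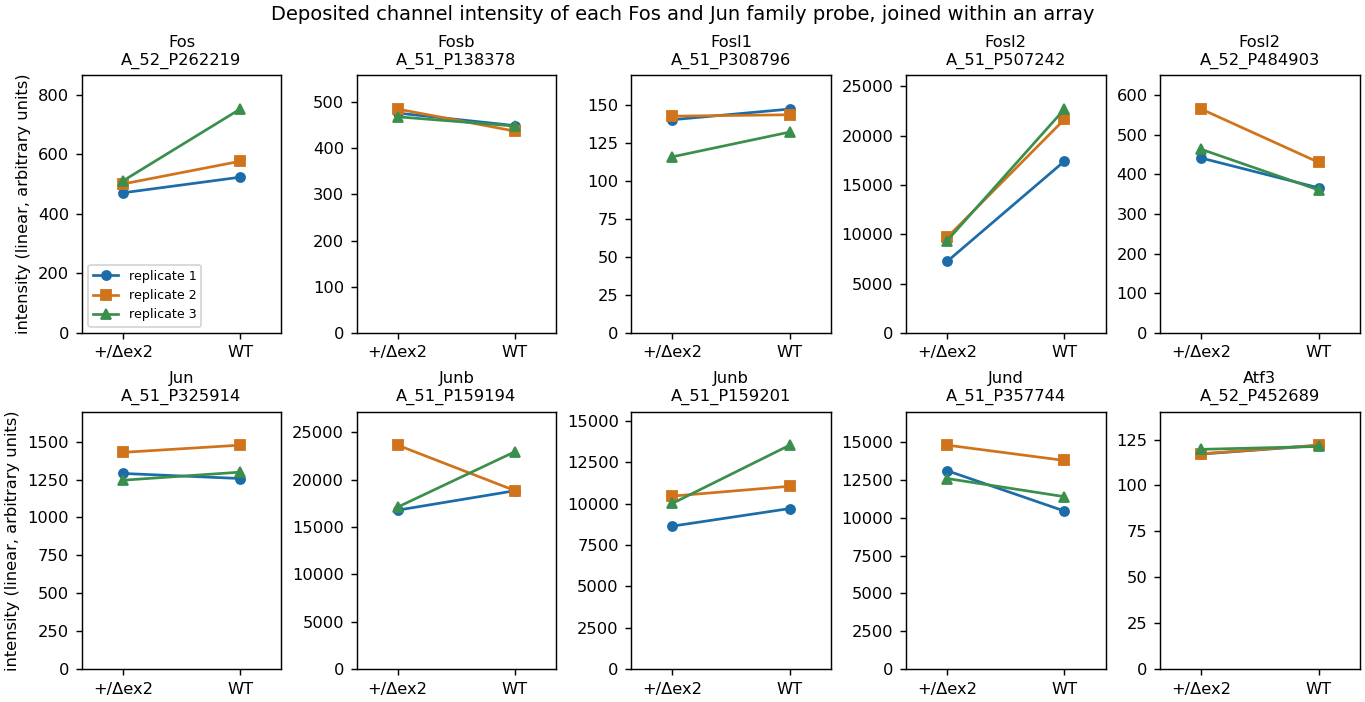
Deposited linear intensity (y axis, arbitrary units, from 0) of each family probe in Gtf2i(+/Δex2) (left) and WT (right), with a line joining the channels of each of the 3 arrays. The Fosl2 probe A_51_P507242 lies at 7245 to 9674 in the mutant and 17411 to 22689 in WT, and Fos is set apart on replicate 3 by a WT value of 752.

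Among the Jun genes, Jun, which encodes the founding partner of Fos, did not pass the test. Probe A_51_P325914 gave 1290.4, 1429 and 1246 in the mutant, against 1257, 1477 and 1299 in WT cortex, with ratios on both sides of 0. The mean log2 ratio was -0.02 ± 0.05 (SD, n = 3; limma adjusted p = 0.684). The 95% interval ran from 91.7% to 106% of WT. It covers array-to-array spread alone and, unlike the adjusted p, makes no allowance for the other probes tested.

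Junb, an immediate early gene whose protein is a weaker activator than Jun at many sites, was read by a pair of probes that differed on the dye-swapped array. Probe A_51_P159201 gave 8633, 10448 and 10007 in the mutant and 9694, 11042 and 13528 in WT cortex, log2 ratios of -0.17, -0.08 and -0.43. Probe A_51_P159194 gave 16785, 23659 and 17109 in the mutant and 18839, 18853 and 22967 in WT cortex, log2 ratios of -0.17, 0.33 and -0.42. On replicates 1 and 3 the probes differed by 0.01 or less on the log2 scale, and on replicate 2, where the mutant was in Cy5, by 0.41. The first probe was lower in the mutant on all 3 arrays with a mean of -0.23 ± 0.19, and the second averaged -0.09 ± 0.38 (SD, n = 3). Neither passed (limma adjusted p = 0.0673 and 0.655). Without replicate 3 probe A_51_P159201 read -0.12, and with array weights it passed, at -0.18 (limma adjusted p = 0.00564).

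Jund, the Jun gene with the steadiest expression in unstimulated cells, was slightly higher. Its probe A_51_P357744 gave 13126, 14818 and 12607 in the mutant, against 10452, 13803 and 11405 in WT cortex. The ranges of the genotypes overlapped, while each array taken alone had the mutant above WT. The log2 ratios of 0.33, 0.10 and 0.14 averaged 0.19 ± 0.12 (SD, n = 3), or 114% of WT with a 95% interval from 104% to 126% (limma adjusted p = 0.0486). The call was lost in 7 of 12 alternatives, with adjusted p up to 0.29 without replicate 1, where the ratio was 0.12, and 0.0608 without replicate 2.

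Atf3, a stress-induced member that pairs with Jun proteins, was not detected above the filter. Its probe A_52_P452689 was flagged not reliable and called absent in both channels of all 3 arrays. It gave 117, 117 and 119.6 in the mutant and 122, 122 and 121 in WT cortex, 1.48 to 1.55 and 1.50 to 1.68 times the negative controls. No fold change is given for it.

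Ordered by mean ratio, the tested probes ran from Fosl2 (A_51_P507242) through Fos, Junb (A_51_P159201), Fosl1, Junb (A_51_P159194), Jun, Fosb and Jund to Fosl2 (A_52_P484903). Of the 8 pairs of neighbours in that order, 7 had overlapping 95% intervals. The 1 gap lay between the lowest Fosl2 probe and Fos. In the Fos family 2 of 5 tested probes were lower and 1 was higher, and in the Jun family 0 of 4 were lower and 1 was higher, beside 18.9% lower and 15% higher among all tested probes. The counts of the families are too small to be read against each other, and their difference was not tested.

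Fos and both Junb probes had their lowest ratios on replicate 3, but this was not particular to them. Fosb (0.08, 0.15 and 0.06 on replicates 1, 2 and 3), Fosl1 (-0.07, -0.01 and -0.19) and Jun (0.04, -0.05 and -0.06) were also lowest there. So was the falling Fosl2 probe, by a small margin. Jund was lowest on replicate 2 and the rising Fosl2 probe on replicate 1. Replicate 3 also stood apart for several but not all lists of markers. The 13 tested probes of 6 of 7 thalamic marker genes averaged a log2 ratio of 0.66 on replicate 3, against -0.05 on each of replicates 1 and 2. Their summed intensity ranged from 9707 to 12341 in the mutant and from 4811 to 11084 in WT cortex, with 0 probes at 0, and Lef1 missed the filter. On replicates 1, 2 and 3 the mean log2 ratios were -0.14, -0.22 and 0.23 for endothelial markers. They were -0.28, -0.36 and 0.08 for striatal markers, and -0.49, -0.53 and -0.07 for blood markers. Oligodendrocyte markers averaged -0.18, -0.26 and -0.05. Other lists moved less between arrays: astrocyte markers read -0.24, -0.20 and -0.21, and microglial markers -0.12, -0.11 and -0.10. Choroid plexus markers read 0.15, 0.16 and 0.16. The cortical glutamatergic markers, of which 6 of 7 genes passed the filter and Rorb did not, averaged -0.26, -0.23 and -0.40 on replicates 1 to 3. Of these, 4 fell and 0 rose, among them Slc17a7 at -0.41 and Fezf2 at -0.45, and their summed intensity was 2828 to 3088 in the mutant and 3287 to 4133 in WT cortex with 0 at 0. The part of these lists in the ratios of the family probes was not tested.

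Genes around AP-1 were read from 6 lists with 68 tested entries. By each gene's probe with the smallest p, 16 fell and 11 rose, 39.7% in all, and 40.7% of all 12721 named genes were called by the same rule (23.6% lower and 17.1% higher). The share was thus close to that of all genes. Among other basic leucine zipper genes, 1 of 9 fell and 1 rose. The one that fell was Mafg, which encodes a small Maf factor, at -0.54 ± 0.08 (log2 ratio, SD, n = 3). Maff (0.14) and Atf4 (-0.16) did not pass.

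Of 17 tested genes for kinases on the routes to AP-1, 8 fell, 1 rose and 8 did not pass, while 23.6% of all named genes fell and 17.1% rose by the same rule. The median log2 ratio of the list was -0.17, and that of all named genes was -0.02. Camk4, a nuclear calcium-dependent kinase that activates CREB, fell by 0.82 ± 0.05 on the log2 scale at probe A_52_P672960, while its other probe read -0.02. Rps6ka4, which encodes the histone and CREB kinase MSK2, fell by 0.44 ± 0.10. Mapk3, which encodes ERK1, read -0.40 at one probe and -0.39 at the other, and Mapk14, which encodes a p38 kinase, read -0.33 ± 0.12 (SD, n = 3). The gene that rose was Map3k12, which encodes the neuronal kinase DLK, at 0.33 ± 0.14 and 0.20 ± 0.05 by its probes. Mapk14 did not pass without replicate 1 (limma adjusted p = 0.0799), and Mapk8, which encodes JNK1, missed the filter. Markers of several cell types were lower on the same arrays: 4 of 6 tested cortical glutamatergic genes fell, as did 3 of 5 astrocyte genes (1 rose), 4 of 5 microglial genes (1 rose) and 3 of 3 blood genes. By each gene's probe with the smallest p, the median log2 ratios of these lists were -0.31, -0.45, -0.17 and -0.46. All 8 tested astrocyte probes together averaged less, -0.24, -0.20 and -0.21 on replicates 1, 2 and 3. Their summed intensity was not steadily lower, with log2 ratios of 0.03, 0.18 and -0.04. The sums of the other lists named here were lower in the mutant on every array. The part of these lists in the kinase ratios was not tested.

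Among regulators of the Fos and Jun promoters, 1 of 11 genes fell and 3 rose, beside 23.6% and 17.1% of all named genes. Mef2c, an activity-dependent factor of excitatory neurons, fell by 0.64 ± 0.04 on the log2 scale. Among those that rose were Crem by 0.27 ± 0.11 and Atf1 by 0.16 ± 0.06 (SD, n = 3), each at its probe with the smallest p. The other probes of Crem ran from -0.10 to 0.10, and those of Atf1 read 0.09 and 0.00381. Srf, which encodes the serum response factor, read -0.21 ± 0.21 and did not pass (limma adjusted p = 0.105), and Creb1 missed the filter. Atf1 lost its call in 5 of 12 alternatives (adjusted p up to 0.274, without replicate 1, and 0.111 without replicate 2), and Crem did not pass without replicate 1 (0.065).

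Phosphatases that switch off MAP kinases went both ways, with 1 of 10 lower and 3 higher, beside 23.6% and 17.1% of all named genes. Dusp8 fell by 0.42 ± 0.16 on the log2 scale, while Dusp10 rose by 0.35 ± 0.07 and Dusp6, a phosphatase of ERK, by 0.33 ± 0.16. Dusp14 was called in both directions, at 0.26 and -0.18. Without replicate 1 Dusp6 (adjusted p = 0.105), Dusp8 (0.0534) and Dusp14 (0.0967) did not pass, nor did Dusp6 without replicate 2 (0.0723).

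Of 7 genes that act on the turnover of Fos and Jun mRNA or protein, 2 fell and 2 rose. Among all named genes 23.6% fell and 17.1% rose. Fbxw7, the substrate receptor of a ubiquitin ligase for Jun, fell at both of its probes, by 0.65 ± 0.03 and 0.71 ± 0.08 on the log2 scale. Gsk3b, the kinase that marks Jun for Fbxw7, read -0.73 ± 0.24 and -0.40 ± 0.18 (SD, n = 3). Elavl1, which encodes the mRNA stabilising protein HuR, rose by 0.66 ± 0.20 at probe A_52_P118640 and read -0.12 at the other. Cop1, a further ubiquitin ligase of Jun, was called in both directions, at 0.31 and -0.16, and the higher call was lost without replicate 1 (limma adjusted p = 0.0766).

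Among 14 genes reported as AP-1 targets 3 fell and 1 rose, beside 23.6% and 17.1% of all named genes. Camk2a fell by 0.44 ± 0.07 at one probe and by 0.19 ± 0.05 at the other, Cdk5 by 0.28 ± 0.10 and the AMPA receptor gene Gria2 by 0.20 ± 0.03 on the log2 scale. Pdyn, which encodes prodynorphin, rose by 0.41 ± 0.23, with 0.68 on replicate 3 against 0.29 and 0.27 on replicates 1 and 2 (SD, n = 3). The probes of Penk, which encodes proenkephalin, read 0.27 ± 0.53 and -0.18 ± 0.40 and did not pass. Without replicate 1 Cdk5 (0.0585), Gria2 (0.115) and Pdyn (0.0597) had adjusted p above the threshold.

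**Figure D3:**
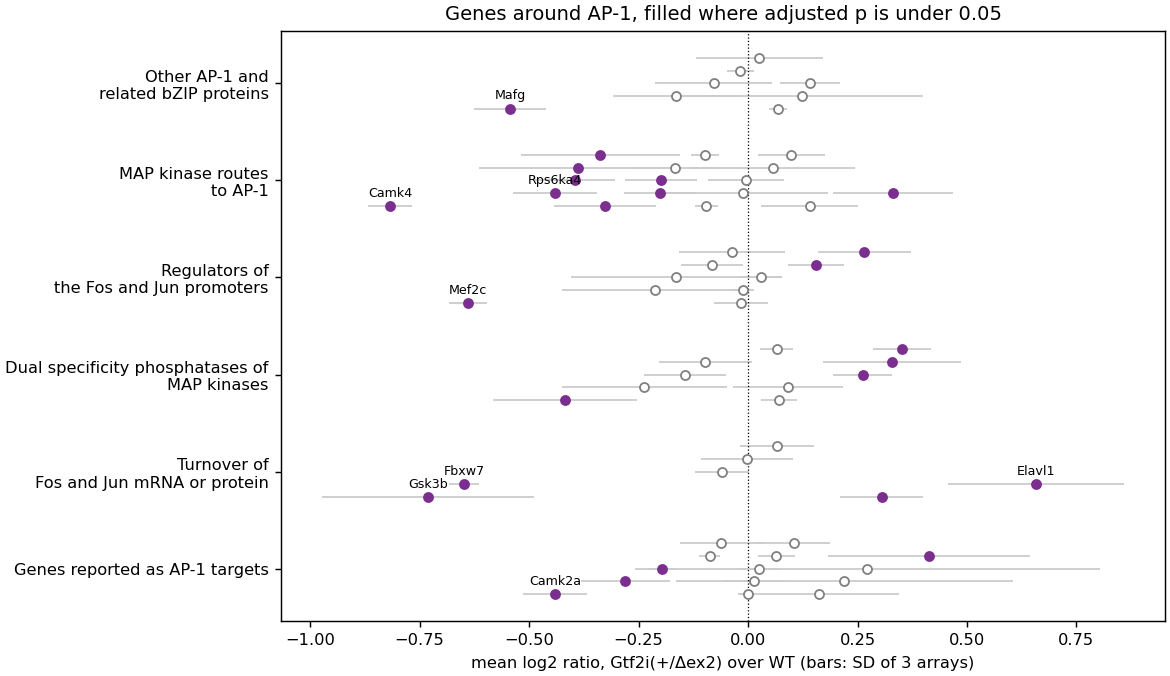
Mean log2 ratio of Gtf2i(+/Δex2) over WT (x axis, bars for the SD of 3 arrays) of the reported genes in 6 lists around AP-1 (rows), each gene at its probe with the smallest p and filled where the limma adjusted p is under 0.05. The 8 kinase genes that fell lie left of 0, with Camk4 lowest at -0.82.

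**Figure D4:**
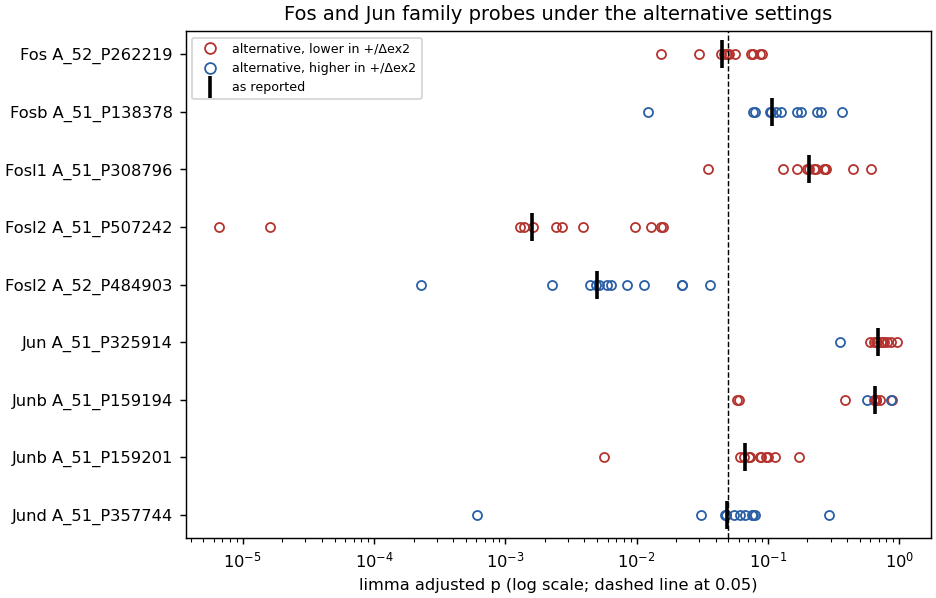
Limma adjusted p (x axis, log scale, dashed line at 0.05) of the 9 tested family probes (rows) as reported (black tick) and in 12 alternative settings (circles, red where lower and blue where higher in Gtf2i(+/Δex2)). Circles of both Fosl2 probes all lie left of the line, while those of Fos and Jund lie on both sides of it.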

How the data were processed

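Each sample was an Agilent two-colour array hybridised with 500 ng of total RNA per labelling, per the labels' protocols. The authors deposited a background-subtracted, normalized linear intensity per channel and spot, quantified with GenePix, per the readme, by a normalization method not given in the sources used here. The authors also deposited a score, a signed fold of test over control, and a collapsed log2 ratio of it. The readme states that the columns named for the dyes were corrected for the dye swap before deposit. A further table for all arrays held the same score for 100% of spots, to within 0.01.

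Log2 ratios of the deposited intensities were averaged over spots of a probe. The limma package (version 3.58.1, under R 4.3.3) then fitted a mean ratio per probe and compared it with 0 by moderated statistics, with Benjamini-Hochberg adjustment over all 27530 tested probes at 0.05. Of the gene spots on each array, 64.4% to 69.7% were flagged reliable, and the number of arrays limits the precision. Ratios correlated over tested probes with r = 0.822, 0.783 and 0.625 (replicates 1 and 2, 1 and 3, 2 and 3); probes are not independent. Accessions were matched without versions to RefSeq (GRCm38.p6), which named 52.1% of probes, and promoter windows came from the same build. The fit was tested on simulated data. Figures were drawn with matplotlib 3.10.9.

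The members and lists were chosen with earlier results of these data known. Named were every family probe, Gtf2i, up to 4 genes with the smallest p per list and the 3 genes nearest to each Fosl2 probe; others named in the lists were chosen after their values were seen. Some genes that this rule names are not reported here; they remain in the counts and are not drawn.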

Additional observations from a re-analysis of the deposited data

How the results depend on the processing

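Leaving out each replicate in turn, the number of family probes called was 2 to 4, of pathway genes 12 to 33 and of all probes 2409 to 9885, while the Fosl2 difference stayed between -1.60 and -1.54; the lowest counts came without replicate 1, and 2 family probes were also called without replicate 2. The 2 family probes that were called in every alternative run were those of Fosl2. The family count was 2 with no filter on dim probes, with replicates 1 and 2 averaged as 1, with the dye as a covariate, with the authors' collapsed log2 ratio and with B above 0, a rule chosen after seeing the data, and it was 7 with array weights. With array weights the pathway count was 50 and the count of all probes 18617. With replicates 1 and 2 averaged the count of all probes was 5120, and with B above 0 the pathway count was 12 and that of all probes 2661. Array weights gave replicate 1 a weight of 5.84, against 0.373 and 0.459 for the others, so those counts rest mostly on replicate 1. Ratios near 0 changed sign: Jun read 0.027 with array weights, and the Junb probe A_51_P159194 read 0.016 with the dye as a covariate and -0.30 to 0.081 with a replicate left out (0.081 without replicate 3), none of them called. With the negative control level subtracted, Jund was not called (adjusted p = 0.0798) and the family count was 3. The fit of ratios within arrays already pairs the genotypes, and no further block could be added.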
